A study of Mus musculus with 9 samples.

Results

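Podocyte marker genes were followed in whole-kidney RNA of Bmal1 knockout and wild-type mice. The set holds 8 of the 23282 gene symbols listed for each library: Nphs1, Cd2ap, Magi2, Podxl, Ptpro, Synpo, Wt1 and Cdkn1c. The set was defined by these symbols and not by a cutoff on a value, but it was chosen with earlier results of these data known. Each symbol was found on 1 row, and all 8 passed the filter on low values, as did 13481 rows of the table. The knockout libraries numbered 5 and were labelled Bmal1 -/-, and 4 libraries were labelled wildtype; all came from kidney of C57BL/6 mice. Bmal1, listed under its older symbol Arntl, encodes the clock transcription factor that pairs with Clock or Npas2. The labels give neither sex, age, hour of sampling nor position of the deletion, nor whether the libraries came from different animals. The p-values therefore reflect the spread among 9 libraries, part or all of which may be technical.

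Podocytes are the epithelial cells that cover the outer face of the glomerular capillaries. Their interlocking foot processes are joined by the slit diaphragm, a junction built around nephrin that forms the last layer of the kidney filter. Adaptor proteins tie this junction to the actin skeleton of the foot processes, a negatively charged surface coat keeps the processes apart, and a small set of nuclear factors holds the cells in their mature, non-dividing state. Several of the 8 genes are not restricted to podocytes: Cd2ap and Magi2 are expressed in many cell types, Podxl is also expressed in vascular endothelium, and Cdkn1c in several other cells of the kidney.

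Upstream sequence was at hand for 4 of the 8 genes (Nphs1, Ptpro, Magi2 and Cd2ap) in RefSeq's GRCm38.p6 annotation. It was read for the hexamer CACGTG, the canonical E-box through which Bmal1 and Clock bind, and for the looser E-box CANNTG, which includes the canonical one, on both strands. None of the 5 windows of 250 bases before a RefSeq start site of these genes, Magi2 having 2 such sites, held CACGTG, against 6.02% of 32851 such windows of all genes, and 4 of the 5 held CANNTG, against 66.2%. These counts describe only the letters in the windows. The windows of Nphs1, at chr7:30459808-30460057 on the + strand, and of Ptpro, at chr6:137252049-137252298 on the + strand, are shown because Nphs1 encodes the defining protein of the slit diaphragm and Ptpro was the member with the widest spread between libraries. Capitals mark CANNTG, which occurs 0 and 3 times.
Nphs1: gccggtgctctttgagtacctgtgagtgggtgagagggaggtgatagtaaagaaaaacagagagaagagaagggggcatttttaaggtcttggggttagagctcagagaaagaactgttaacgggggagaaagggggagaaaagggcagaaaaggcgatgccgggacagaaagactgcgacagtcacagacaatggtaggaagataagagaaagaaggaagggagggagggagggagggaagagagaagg
Ptpro: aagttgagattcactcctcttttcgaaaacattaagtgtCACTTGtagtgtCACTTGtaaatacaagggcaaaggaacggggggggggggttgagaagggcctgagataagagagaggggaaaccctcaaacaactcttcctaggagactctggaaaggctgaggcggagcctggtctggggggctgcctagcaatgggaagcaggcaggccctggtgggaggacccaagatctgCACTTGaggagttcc

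Values are deposited log2(x + 1) units, in which x had similar totals in all libraries. The totals of x were 11765219 to 12936926 in knockout and 12407284 to 13486444 in wild-type libraries, and the raw depth is unknown. How x was derived is not given, and it did not behave as a count scaled by a single factor per library. Every gene above 0 in any library, 18169 in all, was above 0 in knockout 4 and wild types 1, 2 and 4. The other libraries had 15721 to 17464 genes above 0. The effect of this on the fold changes was not tested. Genotype lay along the first principal component, and wild type 2 stood apart on the second, at -52.2 against -8.07 to 23.2 in the other 8 libraries. Arntl was at 5.65 to 5.98 in knockout and 6.26 to 7.06 in wild-type libraries, without overlap; the tag lies near the 3′ end, and the labels do not say which part was deleted, so this neither checks nor contradicts the labels. The ribosomal RNA precursor Rn45s took 6.83% to 14.4% of x in knockout and 5.07% to 11.3% in wild type (exact permutation p = 0.175, two-sided, adjusted over 3 library measures 0.175). Globin transcripts took 0.647% to 2.6% in knockout and 0.443% to 1.14% in wild type (exact permutation p = 0.127, adjusted 0.175). Kap, an abundant proximal tubule transcript, took 2.83% to 3.08% in knockout and 3.72% to 5.15% in wild type (exact permutation p = 0.0159, the smallest that 9 libraries allow, adjusted 0.0476).

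In Bmal1 knockout kidneys 2 of the 8 podocyte genes rose and none fell (limma, Benjamini-Hochberg adjusted p under 0.05 over 13481 genes, two-sided). These were Cdkn1c and Wt1, both nuclear regulators, each by a little under 1.5-fold. Over all genes tested, 6.16% were higher in knockout by the same rule and 8.2% lower, 14.4% in all. Before adjustment 5 of the 8 had a p under 0.05, each higher in knockout, against 12.9% of all genes higher and 27.5% in either direction. All 8 had a positive log2 fold change, against 50% of all genes, with a median of 0.37 beside 0.0002 over all genes. In bulk tissue, a different number of podocytes and a different amount of RNA per podocyte cannot be told apart. Several of the 8 are also expressed in other cells, and a change there cannot be told apart from these either.

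**Figure D1:**
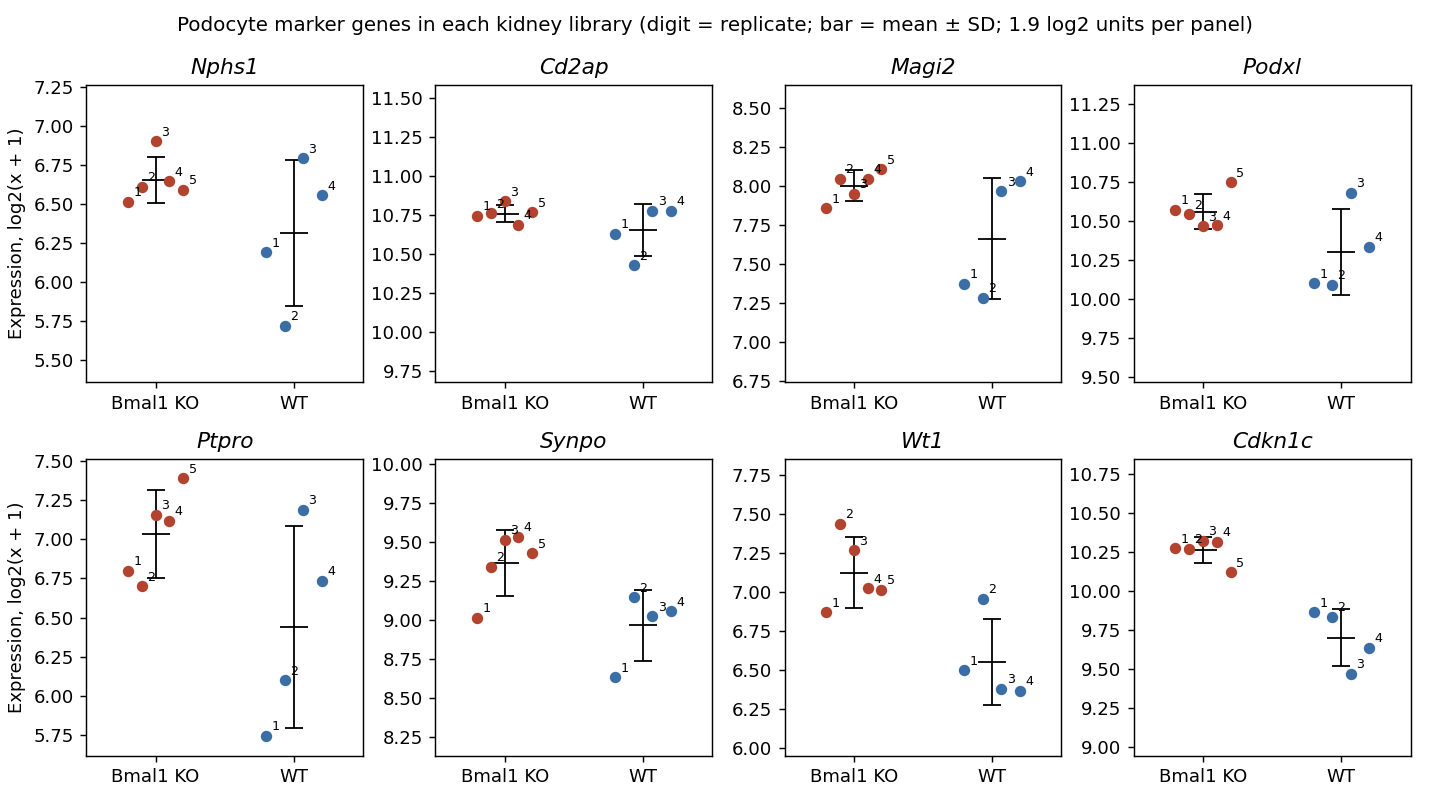
Expression of the 8 podocyte genes, log2(x + 1), in 5 Bmal1 KO and 4 WT libraries, with the mean and SD of each genotype; every panel spans the same number of log2 units. Cdkn1c is the one gene whose knockout libraries (10.12 to 10.32) all lie above the wild types (9.47 to 9.86), and wild types 1 and 2 lie low for Nphs1, Magi2, Podxl and Ptpro.

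Cdkn1c, also called p57Kip2, is an imprinted inhibitor of cyclin-dependent kinases that keeps mature podocytes out of the cell cycle (chromosome 7, 143458339 to 143461050, - strand, GRCm38). Its values were 10.27, 10.27, 10.32, 10.31 and 10.12 in knockouts 1 to 5, against 9.86, 9.83, 9.47 and 9.64 in wild types 1 to 4. All 5 knockouts lay above all 4 wild types, which held for 5.86% of all genes tested, while the opposite separation held for 8.46%. The log2 fold change was 0.56 (SE 0.11, limma adjusted p = 0.00155), or 1.47-fold with a 95% interval of 1.26 to 1.72. It was the one member that passed in every one of 20 alternative settings, with log2 fold changes of 0.48 to 0.66. An exon overlaps the noncoding gene Gm44732 on the other strand, and the strand setting of the authors' counting is not given in the sources used here, so reads from the partner cannot be separated.

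Wt1 encodes the zinc-finger transcription factor that switches on Nphs1, Podxl and other podocyte genes (chromosome 2, 105126529 to 105173616, + strand). Its values were 6.87, 7.44, 7.26, 7.02 and 7.01 in knockouts 1 to 5, against 6.50, 6.96, 6.38 and 6.37 in wild types 1 to 4. Wild type 2 lay above knockout 1, so the genotypes overlapped, and the other 4 knockouts were above every wild type. The log2 fold change was 0.57 (SE 0.19, limma adjusted p = 0.0491), or 1.49-fold with a 95% interval of 1.13 to 1.95. This call lies at the threshold: it was lost when knockout 2, 3, 4 or 5 or wild type 1, 3 or 4 was left out (adjusted p 0.0663 to 0.130) and in 13 of 20 alternatives in all. Without wild type 2 the log2 fold change was 0.71 (limma adjusted p = 0.0147), and with the Rn45s share as a covariate it was 0.42 (adjusted p = 0.244).

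Synpo encodes synaptopodin, the actin-bundling protein of foot processes (chromosome 18, 60593973 to 60660142, - strand). Its values were 9.02, 9.34, 9.52, 9.53 and 9.43 in knockouts 1 to 5, against 8.63, 9.15, 9.03 and 9.06 in wild types 1 to 4. Knockout 1 lay among the wild types and the other 4 knockouts above them all. The log2 fold change was 0.40 (SE 0.13, limma adjusted p = 0.0544), a 1.32-fold difference with a 95% interval of 1.09 to 1.61, just outside the threshold. Synpo passed in 8 of 20 alternatives, among them without knockout 1 (limma adjusted p = 0.0178), without wild type 2 (0.0331) and with each scaling of x to library totals or to the upper quartile (0.0207 to 0.0312). With the Rn45s share as a covariate the log2 fold change was 0.23 (adjusted p = 0.342).

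The slit diaphragm and adaptor genes among the 8, Nphs1, Cd2ap and Magi2, had no call. Nphs1 encodes nephrin, the protein that bridges neighbouring foot processes (chromosome 7, 30458315 to 30487223, + strand). It was at 6.51, 6.61, 6.90, 6.65 and 6.59 in knockouts 1 to 5, against 6.19, 5.72, 6.79 and 6.56 in wild types 1 to 4. The knockouts lay close together, while wild type 2 was lowest of all and wild type 3 was higher than 4 of the 5 knockouts. The log2 fold change was 0.34 (SE 0.22, limma adjusted p = 0.344), with a 95% interval of -0.12 to 0.80. Exons of Nphs1 overlap its antisense gene Nphs1os and the pseudogene Rps12-ps4, both on the other strand.

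Cd2ap encodes an adaptor that links nephrin to actin (chromosome 17, 42792951 to 42876665, - strand). It was at 10.74, 10.76, 10.83, 10.69 and 10.76 in knockouts 1 to 5, against 10.63, 10.43, 10.78 and 10.78 in wild types 1 to 4. Wild types 3 and 4 lay within the knockout range and the other wild types below it. At 0.11 its log2 fold change was the smallest of the 8 (SE 0.10, limma adjusted p = 0.540), and the 95% interval of -0.10 to 0.31 corresponds to 0.930-fold to 1.24-fold.

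Magi2 encodes a scaffold protein with PDZ domains that binds nephrin at the slit diaphragm (chromosome 5, 19227036 to 20704792, + strand). It was at 7.86, 8.04, 7.95, 8.04 and 8.11 in knockouts 1 to 5, against 7.37, 7.28, 7.96 and 8.03 in wild types 1 to 4. Wild types 1 and 2 lay below the other 7 libraries, and wild types 3 and 4 lay within the knockout range. The log2 fold change was 0.34 (SE 0.17, limma adjusted p = 0.199), with a 95% interval of -0.01 to 0.69. The noncoding gene Gm29254 overlaps an exon of Magi2 on the same strand, so the split of reads between the pair is uncertain.

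The surface genes among the 8, Podxl and Ptpro, had no call either. Podxl encodes podocalyxin, the main sialylated protein of the surface coat (chromosome 6, 31519488 to 31563981, - strand). It was at 10.57, 10.54, 10.47, 10.47 and 10.75 in knockouts 1 to 5, against 10.10, 10.09, 10.68 and 10.34 in wild types 1 to 4. Wild type 3 was higher than 4 of the 5 knockouts, and the other 3 wild types were below all of them. The log2 fold change was 0.26 (SE 0.12, limma adjusted p = 0.181), and 0.38 without wild type 3 (adjusted p = 0.0337).

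Ptpro encodes GLEPP1, a receptor tyrosine phosphatase of the foot process membrane (chromosome 6, 137252319 to 137463233, + strand). It was at 6.80, 6.70, 7.16, 7.12 and 7.39 in knockouts 1 to 5, against 5.74, 6.10, 7.19 and 6.74 in wild types 1 to 4. The 4 wild types spanned 1.45 log2 units, the widest range of any member in either genotype, and wild type 3 was above 4 of the 5 knockouts. Ptpro had the largest log2 fold change of the 8, 0.59, but with an SE of 0.26 and a 95% interval of 0.05 to 1.13 it did not pass (limma adjusted p = 0.139). Without wild type 3 it was 0.84 (adjusted p = 0.0318), and without wild type 1 it was 0.36 (adjusted p = 0.393), below the 0.61 of Cdkn1c and the 0.55 of Wt1 in the same 8 libraries.

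By SD the members varied more between wild-type than between knockout libraries. The SD was larger in wild type for 8 of 8 members, against 56.7% of all genes tested. It was 0.65 and 0.47 for Ptpro and Nphs1 in wild type, beside 0.28 and 0.15 in knockout. For Synpo the SDs were close, 0.23 in wild type and 0.21 in knockout, and its range was slightly wider in knockout (0.517 against 0.513). The 8 genes were read in the same libraries and are not separate observations. In 5 members, Nphs1, Cd2ap, Magi2, Podxl and Ptpro, wild types 1 and 2 were both below wild types 3 and 4. In Wt1 and Cdkn1c the order was the opposite, with wild types 1 and 2 both above. Over all genes tested, 24.4% showed the first order and 22% the second; the split was noticed after the values were seen and was not tested. Centred on their own means, the 8 members averaged 0.04, 0.17, 0.26, 0.19 and 0.23 in knockouts 1 to 5, and -0.41, -0.35, -0.01 and -0.11 in wild types 1 to 4. Rn45s took 5.07% and 11.3% of x in wild types 1 and 2 and 6.17% and 7.20% in wild types 3 and 4. The summed x of the 8 genes was 5535 to 5924 in knockout and 4341 to 5210 in wild-type libraries, without overlap, of which Cd2ap, Podxl and Cdkn1c made the larger part.

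**Figure D2:**
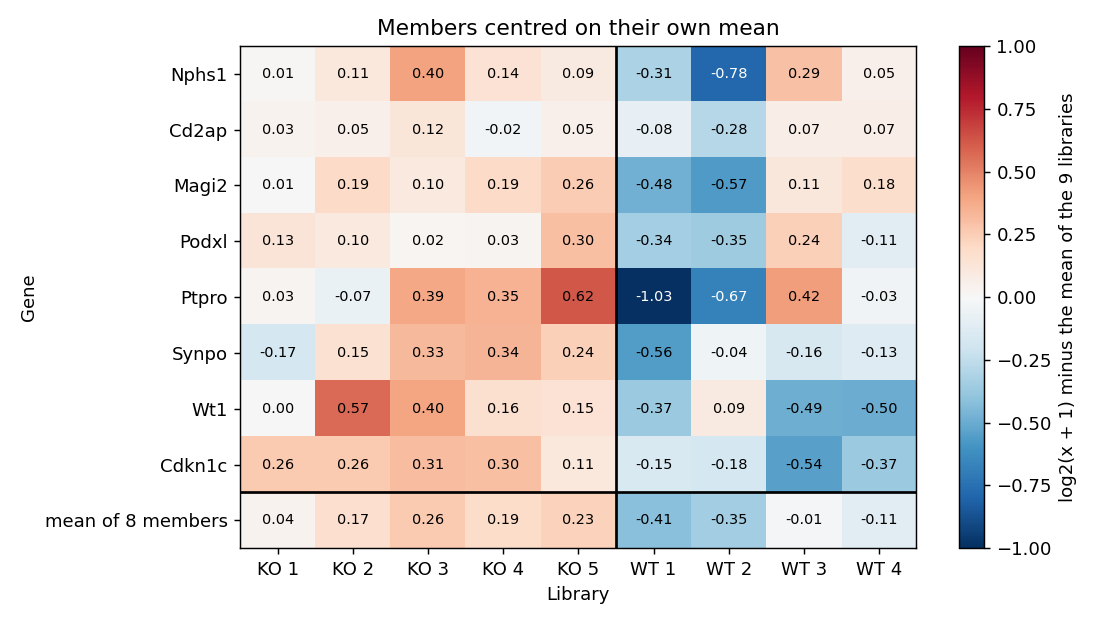
Each podocyte gene in each library as its log2(x + 1) value minus its mean over the 9 libraries, with the mean of the 8 genes in the bottom row; red is above and blue below the gene's mean. Ptpro and Nphs1 reach -1.03 and -0.78 in wild types 1 and 2, while Cdkn1c is lowest in wild type 3, at -0.54.

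The order of levels on the log2 scale was the same in both genotypes: Cd2ap, Podxl, Cdkn1c, Synpo, Magi2, Wt1, Ptpro and Nphs1, highest to lowest. Libraries of this kit start at the poly(A) tail, so that a transcript yields roughly 1 read whatever its length, and levels were not divided by length. Mean x was 1731 in knockout and 1616 in wild type for Cd2ap, against 100.02 in knockout and 81.6 in wild type for Nphs1, and no member fell below 51.7 in any library. In each genotype the ranges of Cd2ap and Podxl overlapped, as did those of Wt1 with Ptpro and of Ptpro with Nphs1. Compared within a library, Cd2ap was nevertheless above Podxl in every library. Wt1 lay above Ptpro in knockout 2 and below it in knockout 5. Ptpro was above Nphs1 in every library but wild type 1. The steps from Podxl to Cdkn1c, Synpo, Magi2 and Wt1 were free of overlap in each genotype.

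Set against the mean of the other 7 members in the same library, no member but Cd2ap separated the genotypes. Cd2ap stood 2.24 to 2.47 log2 units above the others in knockout and 2.55 to 2.86 in wild type, a difference of -0.33 between the genotype means. Cdkn1c stood 1.54 to 1.94 above in knockout and 1.07 to 1.98 above in wild type, so its rise did not stand apart from the other members by this measure. For Wt1 the corresponding values were -2.01 to -1.46 and -2.46 to -1.42. These differences are a description and were not tested.

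Of 64 further podocyte genes listed by role, 57 passed the filter, and 4 rose and 1 fell in knockout (limma, adjusted p under 0.05). The share that rose is close to the 6.16% of all genes. Before adjustment 14 of the 57 were higher and 4 lower (limma, p under 0.05), against 12.9% of all genes higher and 27.5% in either direction. A positive log2 fold change was found in 40 of the 57, against 50% of all genes, and the median was 0.21. Many of them are also expressed outside podocytes. In the slit diaphragm list 0 of 10 tested genes passed by limma, while before adjustment 2 were higher and 1 was lower. The polarity protein gene Pard3, among the most abundant of the list, did not pass in limma (adjusted p = 0.639, log2 fold change -0.10, SE 0.12).

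Among 15 tested genes of the foot process skeleton, Vim rose and Cttn fell, with a list median of 0.07. Vim, the intermediate filament vimentin, which is also abundant in endothelium and stroma, was at 8.86 to 9.18 in knockout and 8.37 to 8.59 in wild-type libraries (log2 fold change 0.46, SE 0.12, limma adjusted p = 0.0122). Cttn, the actin-binding protein cortactin, was at 9.31 to 9.51 in knockout and 9.65 to 9.91 in wild type (-0.42, SE 0.10, adjusted p = 0.00903). Neither pair of ranges overlapped. Over all genes tested, 5.86% had all knockouts above all wild types and 8.46% had all below. Cttn did not pass with the Rn45s share as a covariate (limma adjusted p = 0.0614). The most abundant members, Actn4 and Ezr, which encode α-actinin-4 and ezrin, had log2 fold changes of 0.07 (adjusted p = 0.709) and -0.27 (adjusted p = 0.0900).

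Of 8 tested podocyte transcription factors Foxd2 rose (log2 fold change 0.86, SE 0.26, limma adjusted p = 0.0364), at 5.84 to 6.32 in knockout and 4.77 to 5.83 in wild-type libraries. This forkhead factor passed in 10 of 20 alternatives, and did not when knockout 1, 2 or 5 or wild type 1, 3 or 4 was left out (adjusted p over all alternatives 0.00944 to 0.116). Dach1, among the most abundant of the list, differed by -0.01 on the log2 scale (SE 0.18, adjusted p = 0.972). Lmx1b, mutated in human nail-patella syndrome, is listed at 0 in all 9 libraries.

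Of 12 genes of adhesion and basement membrane Npnt rose. It encodes nephronectin, a matrix ligand of integrin α8, and was at 10.97 to 11.44 in knockout and 10.24 to 10.85 in wild type (log2 fold change 0.71, SE 0.13, limma adjusted p = 9.54e-04). The abundant laminin receptors Itgb1 and Dag1 had 0.19 (adjusted p = 0.237) and 0.36 (adjusted p = 0.0653). Of 12 secreted and surface genes Efnb1 rose, at 8.71 to 9.40 in knockout and 8.36 to 8.66 in wild type (log2 fold change 0.60, SE 0.14, adjusted p = 0.00859). This membrane ligand, ephrin-B1, did not pass with the Rn45s share as a covariate (0.0792). Vegfa, the endothelial growth factor that podocytes supply to the capillary, had -0.19 (SE 0.09, limma adjusted p = 0.212). All 5 of its knockout values lay below all wild types, as did those of 8.46% of all genes tested. The protease gene Htra1 had 0.09 (adjusted p = 0.681).

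**Figure D3:**
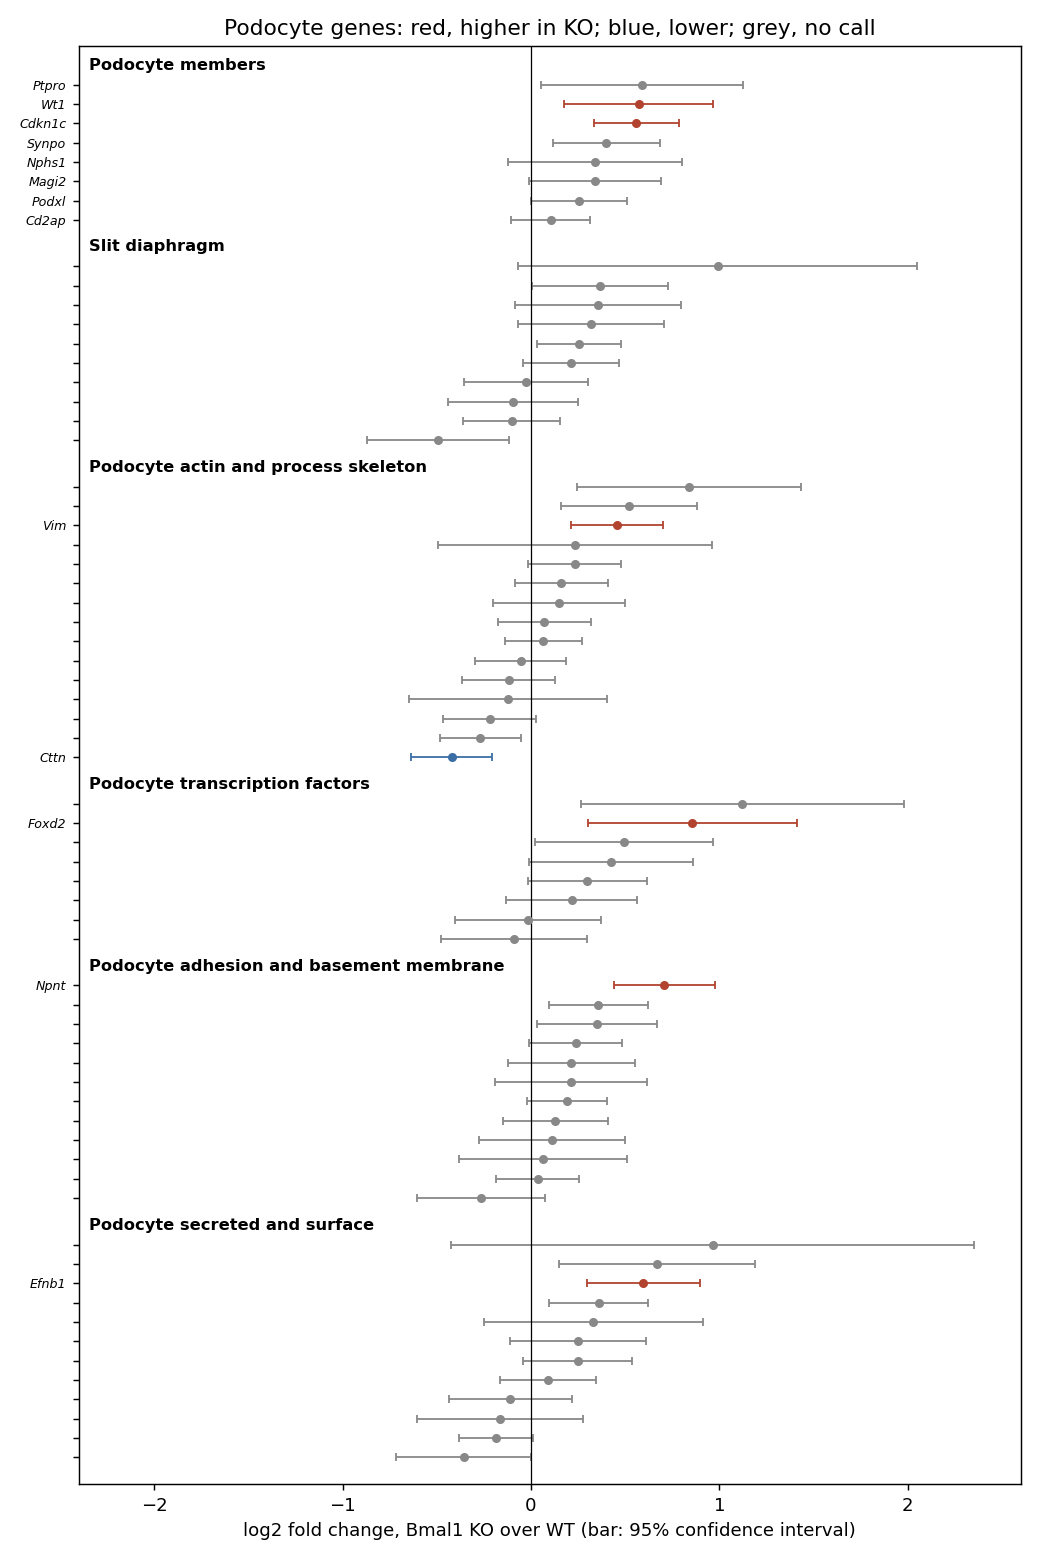
Log2 fold change of Bmal1 KO over WT for the 8 podocyte genes and 57 further podocyte genes by role, each with its 95% confidence interval from limma. Red points (Cdkn1c, Wt1, Vim, Foxd2, Npnt and Efnb1) are higher in knockout and the blue point (Cttn) lower at an adjusted p under 0.05; grey points have no call, and gene names are given for the 8 genes and for those with a call.

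The genes whose course over the 9 libraries was most like the mean of the 8 members were Dlgap4, Plagl1, Tmem63a, Klf4 and Col4a2, with Pearson correlations of 0.974, 0.973, 0.970, 0.968 and 0.962. They encode a synaptic-type scaffold protein, an imprinted zinc-finger factor, an ion channel of osmotic and mechanical stress, a Krüppel-like factor and a chain of collagen IV. These were the highest of 13473 other genes, and the libraries share genotype and scaling, so the correlations are a description.

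Some markers of other kidney cells moved in the same libraries. Of 9 glomerular endothelial genes 4 rose and none fell by limma (median log2 fold change 0.46; also 4 and 0 before adjustment), with Ehd3 at 0.69 (adjusted p = 0.0156) and the receptor Kdr at -0.11 (adjusted p = 0.752). Their summed x was 4017 to 7256 in knockout and 3211 to 4568 in wild-type libraries. Of 8 mesangial and juxtaglomerular genes 2 rose, among them renin, Ren1 (0.49, limma adjusted p = 0.0387), while Serpine2 was at 0.04. The median of this list was only 0.04, with 5 log2 fold changes above 0 and 3 below. Its summed x was 2017 to 2449 in knockout and 1606 to 1996 in wild type. Of 4 parietal epithelial genes 2 rose, among them Akap12 (0.69, adjusted p = 0.0109), while Pax8 was at 0.17 (adjusted p = 0.488); the summed x was 1438 to 1700 in knockout and 951.4 to 1075 in wild type.

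Most proximal tubule genes went the other way, with 10 log2 fold changes below 0 and 3 above. Of 13 tested 5 fell and none rose, with a median log2 fold change of -0.61; before adjustment 10 were lower and 0 higher. Their summed x, mostly Kap, was 449560 to 479610 in knockout and 625070 to 827070 in wild-type libraries. Kap itself had -0.67 (limma adjusted p = 0.0604) and the phosphate transporter Slc34a1 -0.28 (adjusted p = 0.173). Markers rose in 2 of 5 genes of the thick limb, where 1 was lower before adjustment. They rose in 4 of 7 of the distal nephron and collecting duct, where 2 log2 fold changes were below 0. The counts were 2 of 6 for fibroblasts, 0 of 4 for smooth muscle by limma (3 before adjustment), 0 of 6 for blood (5 before adjustment) and 4 of 5 for urothelium. Among leukocyte genes 1 of 6 fell. Over all genes tested 6.16% rose and 8.2% fell. Of 12 clock genes 5 rose and 5 fell. The part that these shifts in cell markers have in the values of the podocyte genes was not tested.

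**Figure D4:**
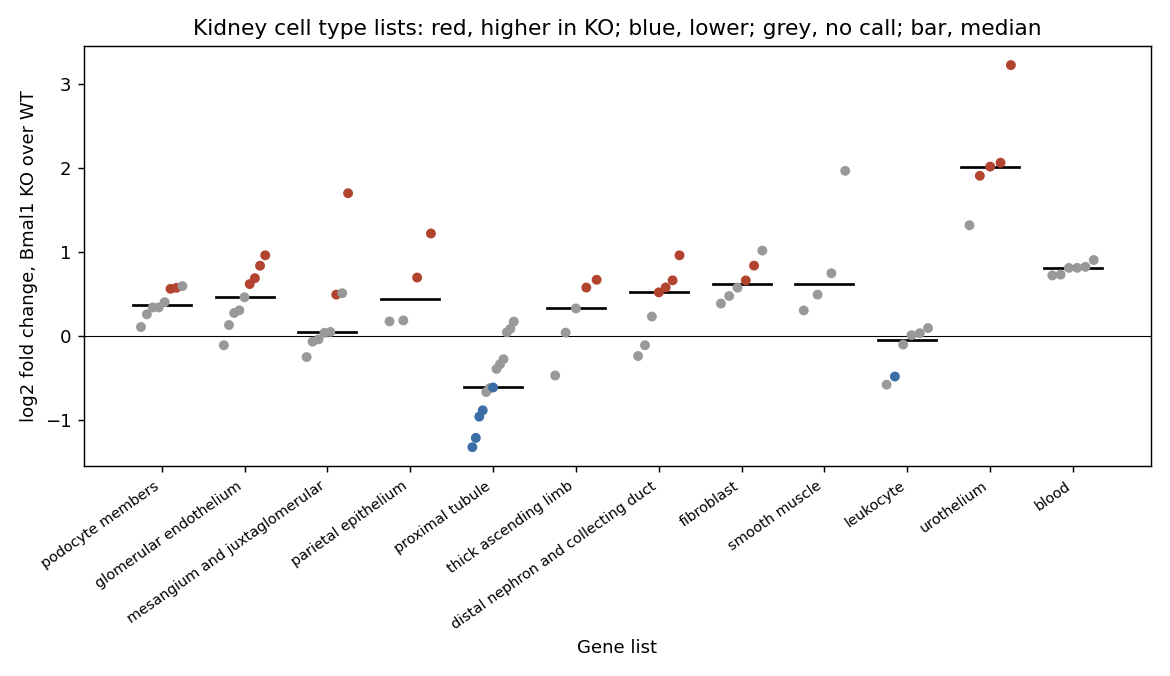
Log2 fold change of Bmal1 KO over WT for each tested gene of the 8 podocyte genes and of 11 lists for other kidney cell types; the bar is the list's median, red is higher and blue lower in knockout at an adjusted p under 0.05. The podocyte median of 0.37 lies between the nearest other medians, 0.33 for the thick ascending limb and 0.44 for parietal epithelium. Only proximal tubule and leukocyte medians are below 0.

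All 8 members kept a positive log2 fold change in each of the 20 alternative settings, but not all of these could change it. The fits with no filter, a stricter filter or no variance trend use the same values, so only their p-values can differ. A block for replicate number gave the same fold changes as leaving out knockout 5. Cdkn1c had a call in all 20, Synpo in 8, Wt1 in 7, Podxl and Ptpro in 1 each, and Nphs1, Magi2 and Cd2ap in none. Leaving out a single library gave between 1 and 3 calls among the 8, with 3 without knockout 1, wild type 2 or wild type 3 and 1 on leaving out any of the other 6 libraries. Without wild type 2, the library that stood apart, the log2 fold changes were 0.60 for Cdkn1c, 0.71 for Wt1, 0.46 for Synpo, 0.48 for Ptpro, 0.21 for Magi2, 0.19 for Podxl, 0.14 for Nphs1 and 0.03 for Cd2ap.

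**Figure D5:**
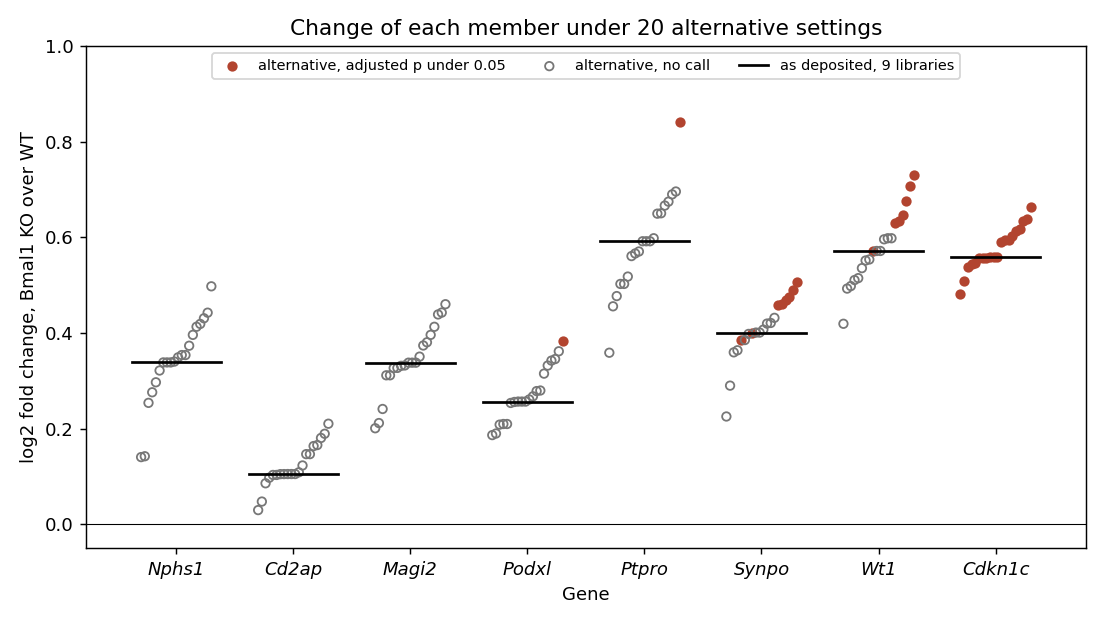
Log2 fold change of Bmal1 KO over WT for each podocyte gene under 20 alternative settings, sorted by value within a gene; filled points pass an adjusted p of 0.05 and the black line is the value with the deposited scaling and 9 libraries. Every point lies above 0, from 0.03 for Cd2ap to 0.84 for Ptpro, and Cdkn1c alone is filled throughout. Points for no filter, a stricter filter and no variance trend lie on the black line by design.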

How the data were processed

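Kidney RNA was extracted with Trizol, and 500 ng per library entered Lexogen QuantSeq 3′ libraries, per the labels' protocols. Bowtie2, bedtools and the mouse build mm10 are named in the submitters' processing notes, without versions; the sources used here do not give the normalization, annotation or strand setting. The deposited values are log2(x + 1), 1 table per library. They are not counts, so no count model was used, and fold changes of low genes are understated.

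Rows reaching an x of 10 in 4 or more libraries were tested. limma 3.58.1 (R 4.3.3) was run on the log2 values (moderated test with variance trend, genotype as the single term, two-sided, Benjamini-Hochberg over 13481 rows). The procedure was checked on simulated data. Library measures were compared by exact permutation over 126 splits. Symbols listed more than once, 79 rows, held none of the named genes. Positions are from GENCODE M21 (GRCm38, the assembly of mm10).

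The members and gene lists were chosen with earlier results of these data known. Named genes are the members, the called and the 2 most abundant genes of each podocyte role list, the 2 most abundant of the glomerular and proximal tubule lists, Arntl, and the 5 genes closest in course; for other cell types and clock genes counts alone or no values are given. Some genes that this rule names are not reported here.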

Additional observations from a re-analysis of the deposited data

Results flagged for a closer look

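Within groups of 4 or 5 libraries, 3 values stood far from the rest of their group by Dixon's criterion, out of 24 groups examined; chance alone flags about 1 group in 20. Cdkn1c was at 10.121 in knockout 5, below the other 4 knockouts at 10.27 to 10.32, and still above every wild type. Globin took 1.14% of x in wild type 2, against 0.443% to 0.526% in the other wild types. Kap took 3.08% of x in knockout 2, against 2.83% to 2.89% in the other knockouts.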

How the results depend on the processing

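Directions of the 8 podocyte genes held in all alternatives, although a changed filter or variance trend cannot alter a direction. Their number of calls did not hold. It was 2 with the deposited scaling and 1 with the Rn45s share as a covariate, with no filter, with no variance trend or with 5 as pseudocount, 3 with a stricter filter and when scaled to the library total, to the total without Rn45s or to the upper quartile, and 1 to 3 on leaving out single libraries. The further podocyte genes had 4 higher and 1 lower; higher calls numbered 7 after quantile normalization and with scaling to the library total, 9 with upper-quartile scaling, 10 when scaled to the total without Rn45s, 2 with the Rn45s covariate and 3 to 7 on leaving out single libraries. Lower calls numbered 2 without wild type 2 and knockout 4, 2 with the replicate block, 0 by limma with the Rn45s covariate (2 at an unadjusted p under 0.05) and 1 to 2 on leaving out single libraries. Over all genes, 831 higher and 1106 lower became 896 and 870 after quantile normalization, 992 and 756 when scaled to the library total, 1123 and 811 when scaled to the upper quartile, 1272 and 695 when scaled to the total without Rn45s, 548 and 674 with the covariate, and 734 lower without the trend. Scaling without Rn45s moved the median of all genes to 0.10, and on that scale Cdkn1c had 0.66 and Wt1 0.68. The cause of these shifts was not tested. The difference in globin share, knockout minus wild type, was 0.602 percentage points and did not pass (exact permutation p = 0.127); on leaving out single libraries it was 0.263 to 0.767, with an unadjusted exact permutation p of 0.0357 without wild type 2 (0.767) and of 0.0857 to 0.25 without any other library.

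The labels give both genotypes the numbers 1 to 4. Deviations of same-numbered libraries from their group correlated at 0.151, 0.001, -0.007 and 0.041. Differently numbered pairs of a knockout and a wild type had -0.161 to 0.088, so 0.151 was the highest of all. These correlations cannot decide whether the numbers pair the libraries, because pairing need not leave a mark on the values. With a replicate block Wt1 had an adjusted p of 0.0529 and Synpo 0.0426 (limma), again 2 calls of 8. In that fit the knockout without a same-numbered wild type added nothing to the fold changes. The unknown raw depth sets a limit on what can be said of counting error.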
